A study of Mus musculus with 9 samples.

Results

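The *Hoxb* cluster on mouse chromosome 11 holds 10 homeobox genes, which lie on the plus strand in the order *Hoxb13*, *Hoxb9*, *Hoxb8*, *Hoxb7*, *Hoxb6*, *Hoxb5*, *Hoxb4*, *Hoxb3*, *Hoxb2* and *Hoxb1*. Its CTCF peaks were chosen by position alone, as every merged peak that overlapped chr11:96174316-96388256 (GRCm38), the span of the genes with 20 kb on each side. This gave 22 of the 225769 CTCF peaks in the data, named here P1 to P22 from the *Hoxb13* side to the *Hoxb1* side. CTCF was mapped by chromatin immunoprecipitation and sequencing in primary neural stem cells (NSCs), grown from dissociated cortices of E14.5 C57Bl/6 embryos, and all of the cells were female. MommeD43-GFP NSCs (*Smchd1* MommeD43-GFP/MommeD43-GFP, 3 libraries) carry the MommeD43 missense mutation on both copies of a *Smchd1* allele fused to GFP. Smchd1del/del NSCs (*Smchd1* del/del, 2 libraries) lack a functional allele. They were made in culture from flox/flox cells by a Cre retrovirus that carries puromycin resistance, followed by drug selection, and no GFP tag is given for them. Control NSCs (*Smchd1* GFP/GFP, 3 libraries) carry the same GFP fusion without the mutation, and the 1 input library also came from this genotype. For the Smchd1del/del cells, loss of SMCHD1, exposure to Cre and drug, and the lack of a GFP tag cannot be told apart.

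CTCF is a zinc finger protein that binds a long, directional DNA motif and, together with cohesin, sets the borders of chromatin loops and domains. The genes of a Hox cluster are switched on in order along the chromosome as the body axis forms, with *Hoxb1* earliest and most anterior and *Hoxb13* latest and most posterior, and CTCF sites within the clusters are known to keep active and silent segments apart. *Hoxb1* and *Hoxb2* pattern the hindbrain, *Hoxb4* supports the growth of blood stem cells, *Hoxb8* holds back the maturation of myeloid progenitors, and *Hoxb13* limits growth of the tail and acts in the prostate. SMCHD1 is a non-canonical SMC protein that silences genes on the inactive X chromosome and at several autosomal gene clusters, among them the Hox clusters, and the comparison of the genotypes asks whether CTCF occupancy at these genes depends on SMCHD1.

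Each value is the authors' mean, over the libraries of a genotype, of log2 reads per M reads of library (RPM) in a peak. Because the deposited values are pooled, they have no SD and no replicate number, no difference below could be set against the spread between lines, and none carries a test. The ± given with a difference is the standard error from counting reads, worked out from reads decoded from the steps between the lowest values. The decoded libraries held a geometric mean of 41.7 to 49.98 M reads, and a peak of median level held 30.0 to 34.9 reads per library. The levels of *Smchd1* and of NSC marker genes cannot be read from CTCF occupancy, so neither the genotype labels nor the labelled cell type were checked.

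The 22 peaks were 600 to 4350 bp long, with a median of 1500 bp against 750 bp over all peaks, and together covered 45600 bp. Their median GC content was 50.2%, against 47.8% over all peaks, and their median CpG ratio (observed over expected) was 0.355 against 0.197. They were unevenly spread: 8 peaks had their middle between the starts of *Hoxb13* and *Hoxb9*, 5 between the *Hoxb9* start and the *Hoxb5* end, 4 between *Hoxb5* and *Hoxb4*, 2 between the *Hoxb4* start and the *Hoxb1* end, 2 in the flank before *Hoxb13* and 1 in the flank after *Hoxb1*. The bodies of 6 of the 10 genes met a peak. *Hoxb9*, *Hoxb7*, *Hoxb2* and *Hoxb1* did not. No peak was called over 34950 bp from chr11:96346801-96381750, a stretch that holds the whole of *Hoxb2* and *Hoxb1*, the most anterior genes of the cluster.

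CTCF sites were searched with a 20-base weight matrix learned from short, strong peaks on the other chromosomes, whose consensus reads GTGGCCACCAGGGGGCGCTA. A site counts at a score of 13.07 or more. Such a site was present in 10 of the 22 *Hoxb* peaks (45.5%), and these peaks held 11 sites in all. Over all peaks, which are shorter, the share was 21.0%, but among peaks of similar length (within 10% of each *Hoxb* peak) it averaged 43.7%, so the share in *Hoxb* was close to that of its peak lengths. All 7 *Hoxb* peaks with a mean level of 2 or above on the log2 scale had one, where 85.4% of all peaks of that level did. The sites of these 7 peaks are shown because they held most of the reads of the cluster. The sites of P5 and P21 are shown because they scored highest. The sequences are given 5′ to 3′ on the strand of the motif in GRCm38.p6, with the 20 bases of the site in capitals and the flanks in lower case. Only the site itself is given for P3, which lies at the end of *Hoxb13*. P3, P15 and the second site of P11 lie on the plus strand, the strand of the genes, and the others on the minus strand.
P3 (chr11:96197119-96197138): GGTTACAGAAGAGGGCACCC
P6 (chr11:96235082-96235141): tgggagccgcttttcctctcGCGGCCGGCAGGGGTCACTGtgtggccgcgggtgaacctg
P7 (chr11:96240398-96240457): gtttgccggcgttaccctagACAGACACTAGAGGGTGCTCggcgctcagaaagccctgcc
P10 (chr11:96261729-96261788): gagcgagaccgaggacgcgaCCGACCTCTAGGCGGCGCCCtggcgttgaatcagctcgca
P11 first site (chr11:96276733-96276792): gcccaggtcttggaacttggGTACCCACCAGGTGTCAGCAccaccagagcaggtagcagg
P11 second site (chr11:96278924-96278983): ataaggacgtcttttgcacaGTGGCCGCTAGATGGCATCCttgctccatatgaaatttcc
P14 (chr11:96294674-96294733): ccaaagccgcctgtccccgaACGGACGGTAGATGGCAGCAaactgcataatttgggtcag
P15 (chr11:96303221-96303280): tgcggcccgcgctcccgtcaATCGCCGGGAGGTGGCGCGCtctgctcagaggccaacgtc
P5 (chr11:96223983-96224042): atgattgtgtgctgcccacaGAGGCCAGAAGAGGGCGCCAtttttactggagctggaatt
P21 (chr11:96346171-96346230): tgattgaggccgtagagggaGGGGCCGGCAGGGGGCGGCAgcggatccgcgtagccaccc

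The P6 site lay 61 bp from the middle of its peak and scored 16.87, a score that 40.6% of peaks of similar length reached or passed. The sites of the other tall peaks lay further off, at 478 to 1713 bp from the middle. Their best scores were reached by 45.1% (P11) to 78.1% (P10) of peaks of similar length. The P5 site scored 21.11, which 1.27% of peaks of similar length reached, and lies in masked repeat sequence. The P21 site, in an exon shared by *Hoxb3* and its antisense transcript *Hoxb3os*, scored 19.59 at 75 bp from the peak's middle, and 2.33% of peaks of similar length reached that score. Yet P5 and P21 were not tall peaks in values not corrected for peak length, so the highest scores were not at the peaks tallest in reads. Per kb of peak, P5 had 0.41 and P21 0.42 on the log2 scale, near the 0.42 of the tall peak P3 and below the 1.38 of P6. A shorter, looser form of the motif, CCNNNAGNNGGC on either strand, was present in 6 of the 22 peaks (27.3%), against 46.9% on average of peaks of similar length and 24.5% of all peaks. P10 also covers *Mir196a-1*, which makes miR-196a, a miRNA known in the mouse for cleaving *Hoxb8* mRNA. Its mature sequence is shown with the seed (bases 2 to 8) in capitals, from RefSeq on GRCm38.p6.
mmu-miR-196a-5p: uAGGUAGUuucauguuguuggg

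In values not corrected for peak length, CTCF was highest at 7 long peaks between *Hoxb13* and *Hoxb5*, and all of them stood higher in Smchd1del/del NSCs than in control NSCs. P6, at chr11:96233251-96236850 in the long gap between *Hoxb13* and *Hoxb9*, was the tallest by mean level, at 3.21 in MommeD43-GFP, 3.41 in Smchd1del/del and 3.07 in control NSCs on the log2 RPM scale. Its neighbour P7 (chr11:96238201-96241350) had 2.59 in MommeD43-GFP, 2.72 in Smchd1del/del and 2.49 in control. At both, the control was lowest.

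P14, over introns of *Hoxb6* and of the antisense transcript *Hoxb5os* (chr11:96294001-96297750), had 2.86 in MommeD43-GFP, 3.58 in Smchd1del/del and 2.94 in control. P10 (chr11:96261001-96265350), over the noncoding gene *Gm53* and *Mir196a-1*, had 2.85 in MommeD43-GFP, 3.49 in Smchd1del/del and 2.75 in control. P11 (chr11:96276751-96280200), which begins 156 bp past the end of *Hoxb9*, had 2.47 in MommeD43-GFP, 2.94 in Smchd1del/del and 2.67 in control. At P10 and P14 the null cells stood apart from the other genotypes, whereas at P11 the control lay between the null cells and the mutant with the point mutation.

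P15 (chr11:96300901-96304500) covers the start of *Hoxb5* and the end of *Hoxb6*, and had 2.39 in MommeD43-GFP, 2.93 in Smchd1del/del and 2.40 in control. P3 (chr11:96196651-96201000), named after its values were seen, covers the 3′ end of *Hoxb13* and had 2.43 in MommeD43-GFP, 2.89 in Smchd1del/del and 2.302 in control. The 7 peaks, P3, P6, P7, P10, P11, P14 and P15, are also the only *Hoxb* peaks of 3 kb or more. Per kb of peak, 6 of them were still among the 7 highest *Hoxb* peaks on the log2 scale. P3 was not, at 0.42, and P18 (0.74) stood above P15 (0.73). The next tallest without that correction, P18 between *Hoxb5* and *Hoxb4*, had a mean level of 1.704, and the lowest of the 7, P3, had 2.54.

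**Figure D1:**
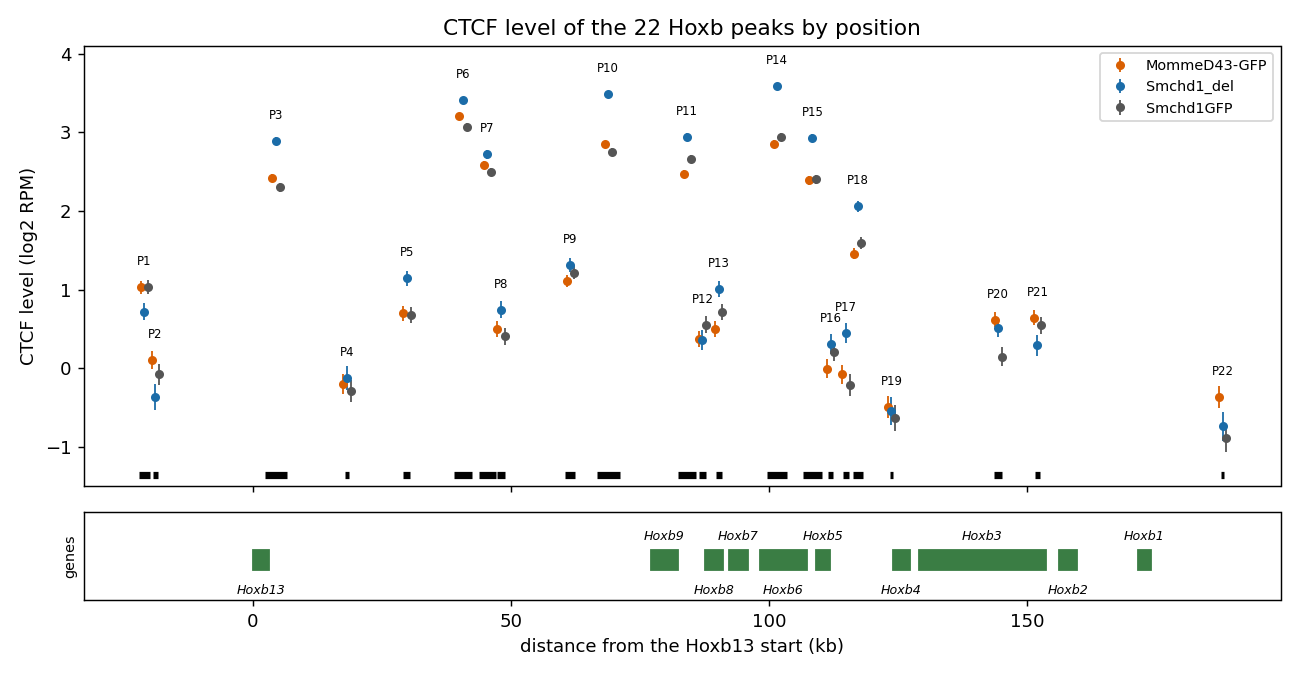
CTCF level (log2 RPM, vertical axis) of the 22 *Hoxb* peaks by distance of the peak's middle from the *Hoxb13* start (kb, horizontal axis) in MommeD43-GFP, Smchd1_del (Smchd1del/del) and Smchd1GFP (control) NSCs. Points are pooled values, shifted slightly sideways for clarity, bars are 1 counting standard error, black bars mark the peaks and green boxes the genes. The 7 tallest peaks lie between *Hoxb13* and *Hoxb5*, and the Smchd1_del point is the highest at each of them.

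The remaining peaks were lower, with mean levels of -0.66 to 1.704. At the gene starts, P12 in the *Hoxb8* promoter (chr11:96280801-96282000) had 0.38 in MommeD43-GFP, 0.36 in Smchd1del/del and 0.56 in control. P19 at the *Hoxb4* start (chr11:96317701-96318300) had -0.49 in MommeD43-GFP, -0.54 in Smchd1del/del and -0.63 in control. Together with P15 at *Hoxb5*, these were the only peaks within 1 kb of a start of any *Hoxb* gene, so the other 7 genes had no CTCF peak at a start.

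Within gene bodies, P13 in *Hoxb8* (chr11:96283951-96285150) had 0.50 in MommeD43-GFP, 1.01 in Smchd1del/del and 0.72 in control. P21 at *Hoxb3* (chr11:96345751-96346800) had 0.64 in MommeD43-GFP, 0.29 in Smchd1del/del and 0.55 in control. P20, in an intron of *Hoxb3* and named after its values were seen, had 0.62 in MommeD43-GFP, 0.51 in Smchd1del/del and 0.15 in control. The order of the pooled values thus differed between peaks even inside *Hoxb3*, but counting error leaves parts of it unresolved. At P21 the differences from control were 0.09 ± 0.14 in MommeD43-GFP and -0.26 ± 0.17 in Smchd1del/del. At P20, MommeD43-GFP less Smchd1del/del was 0.10 ± 0.15.

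Outside genes, P5 (chr11:96223501-96224850), with its strong site, had 0.70 in MommeD43-GFP, 1.14 in Smchd1del/del and 0.68 in control. P1 and P2, in the flank before *Hoxb13*, are at chr11:96172201-96174450 and chr11:96174901-96175950. P1 had 1.03 in MommeD43-GFP, 0.72 in Smchd1del/del and 1.04 in control, and P2 had 0.11 in MommeD43-GFP, -0.36 in Smchd1del/del and -0.08 in control. The null cells were thus lowest at both. P22 (chr11:96381751-96382500), the sole peak in the flank after *Hoxb1*, had -0.37 in MommeD43-GFP, -0.74 in Smchd1del/del and -0.88 in control, and held 38.2 reads per library in MommeD43-GFP, 30.0 in Smchd1del/del and 22.6 in control.

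For Smchd1del/del against control NSCs, the median difference over the 22 peaks was 0.28 ± 0.04 (counting error of the median), against -0.04 over all peaks. The ± of this and later medians is an approximation from counting error alone. It leaves out the spread between peaks, whose SD was 0.31 here. CTCF was higher in Smchd1del/del at 18 of 22 peaks, against 46.6% of all peaks. No *Hoxb* peak was 2-fold or more higher, against 3.31% of all peaks, or 2-fold or more lower, against 1.85%. At 1.5-fold, 4 of 22 were higher (18.2%), against 10.7% of all peaks. Smchd1del/del had the highest of the 3 values at 15 of 22 peaks (68.2%), against 31.5% of all peaks and 47.1% of peaks with a mean level of 2 or above.

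All 7 tall peaks differed in the same direction. The difference came to 0.74 ± 0.07 at P10, a 1.67-fold higher value, to 0.64 ± 0.06 at P14 (1.56-fold), 0.59 ± 0.08 at P3 (1.51-fold) and 0.52 ± 0.08 at P15 (1.44-fold). At P6 it was 0.34 ± 0.06, at P11 0.27 ± 0.07 and at P7 0.23 ± 0.08. Over these 7 peaks the median was 0.52, against 0.04 over the 18144 peaks of the data with a mean level of 2 or above and -0.03 over all 15556 peaks of 3 kb or more. All 7 were higher in Smchd1del/del, against 56.0% of the peaks of that level, and 3 of 7 were at least 1.5-fold higher, against 3.34%. The difference at P10 stood above that of 98.8% of peaks of that level, and that at P14 above 97.8%. Of the 15 lower peaks, 11 were higher in Smchd1del/del, with a median of 0.15. Of all peaks with a mean level under 2, 45.8% were higher, with a median of -0.05.

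Among the lower peaks, P17, a short peak between *Hoxb5* and *Hoxb4* named after its values were seen, was the only other one at least 1.5-fold higher in Smchd1del/del, by 0.66 ± 0.19. P5 was higher by 0.47 ± 0.14 and P13 by 0.29 ± 0.14. The 4 peaks that were lower in Smchd1del/del were P1 (-0.32 ± 0.14), P2 (-0.29 ± 0.21), P21 (-0.26 ± 0.17) and the *Hoxb8* promoter peak P12 (-0.19 ± 0.17). Both flank peaks before *Hoxb13* were thus among them. P19 at *Hoxb4* differed by 0.09 ± 0.24, less than its counting error.

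For MommeD43-GFP against control NSCs, the differences were small. The median over the 22 peaks was 0.09 ± 0.04, against 0.01 over all peaks, and CTCF was higher in MommeD43-GFP at 13 of 22, against 50.8% of all peaks. No *Hoxb* peak reached 2-fold in either direction, against 2.08% of all peaks for higher and 0.718% for lower values. Over the 7 tall peaks the median was also 0.09, with a range of -0.20 to 0.14, and 4 of 7 were higher, against 48.4% of peaks of that level. The tallest, P6, was higher by 0.14 ± 0.06, P10 by 0.10 ± 0.07 and P7 by 0.09 ± 0.07, while the difference was -0.08 ± 0.06 at P14 and -0.20 ± 0.07 at P11. The highest differences were at low peaks near the *Hoxb1* end, 0.52 ± 0.22 at P22 and 0.47 ± 0.16 at P20, and the lowest was -0.22 ± 0.14 at P13 in *Hoxb8*. Only at P6, P11, P20 and P22 did the difference exceed 2 counting standard errors.

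**Figure D2:**
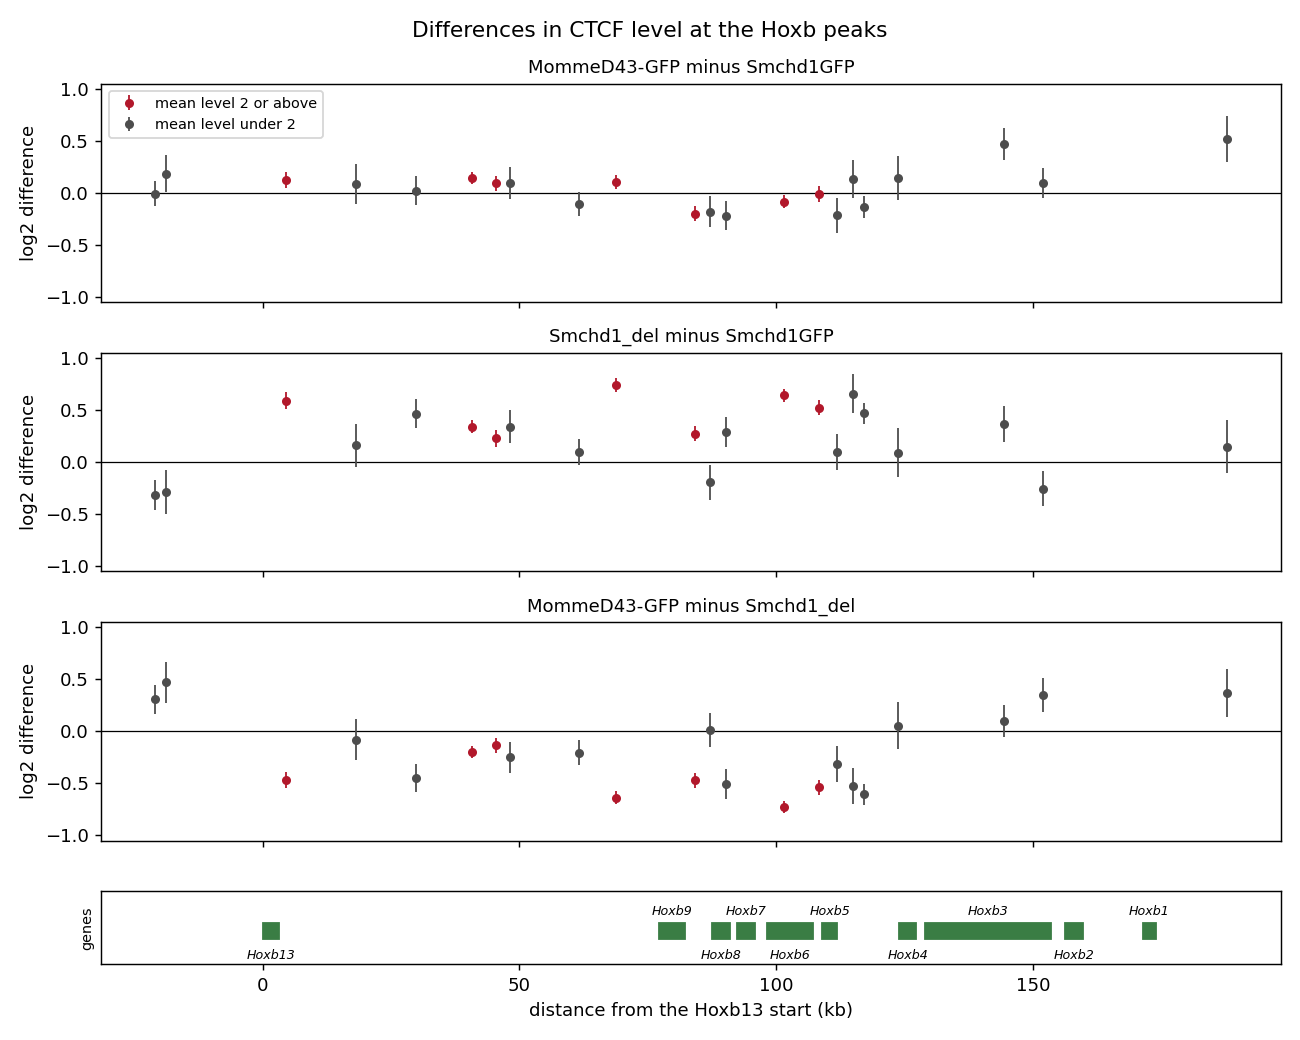
Difference in log2 CTCF level (vertical axes) at the 22 *Hoxb* peaks by distance from the *Hoxb13* start (kb, horizontal axis), for MommeD43-GFP minus Smchd1GFP, Smchd1_del minus Smchd1GFP and MommeD43-GFP minus Smchd1_del. Bars are 1 counting standard error, red points are the 7 peaks with a mean level of 2 or above, and green boxes are genes. In the middle panel the red points lie between 0.23 and 0.74, and in the upper panel between -0.20 and 0.14.

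The mutants were also set against each other, from the same pooled values. MommeD43-GFP less Smchd1del/del had a median of -0.23 ± 0.04 over the 22 peaks, against 0.03 over all peaks, and was higher in MommeD43-GFP at 7 of 22, against 53.9% of all peaks. No *Hoxb* peak was 2-fold or more higher in MommeD43-GFP, against 1.26% of all peaks, or 2-fold or more lower, against 1.08%. At 1.5-fold, 3 of 22 were lower in MommeD43-GFP, against 6.13%. The 7 tall peaks were all lower in MommeD43-GFP, with a median of -0.47 and a range of -0.73 to -0.13, where 37.9% of peaks of that level were higher. Of these, P14 (-0.73 ± 0.06) and P10 (-0.64 ± 0.06) were at least 1.5-fold lower, which 0.667% of peaks of that level were. P14 was lower than all but 0.254% of them. The third such *Hoxb* peak was P18, named after its values were seen, at -0.60 ± 0.10. The highest difference was at P2, at 0.47 ± 0.20.

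Summed over the 22 peaks, CTCF came to 67.1 RPM in MommeD43-GFP, 86.9 RPM in Smchd1del/del and 66.0 RPM in control NSCs. The sum was thus 1.32 times control in Smchd1del/del and 1.02 times control in MommeD43-GFP. The 7 tall peaks gave 45.9 RPM in MommeD43-GFP, 63.1 RPM in Smchd1del/del and 45.0 RPM in control, so most of the excess in Smchd1del/del lay in them. Over all peaks the shares of reads in peaks were 34.6% in MommeD43-GFP, 34.8% in Smchd1del/del and 34.5% in control.

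**Figure D3:**
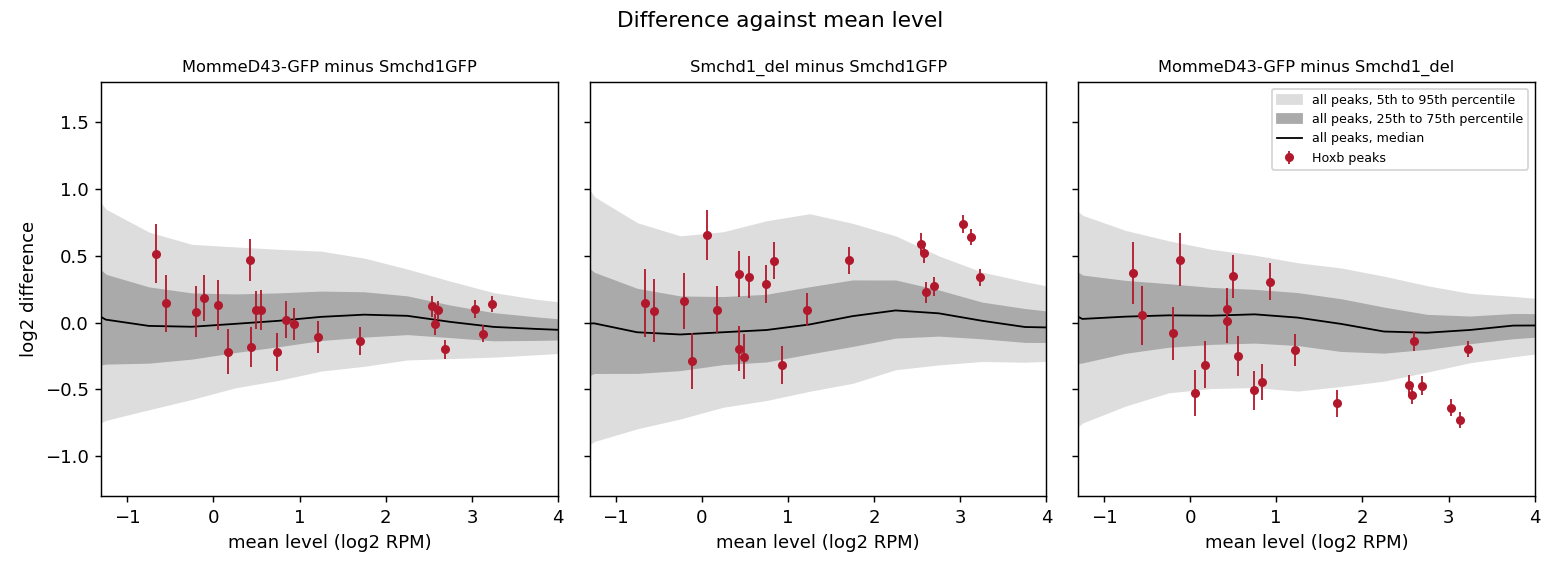
Difference in log2 CTCF level (vertical axis) against the mean level of the 3 genotypes (log2 RPM, horizontal axis) for MommeD43-GFP minus Smchd1GFP, Smchd1_del minus Smchd1GFP and MommeD43-GFP minus Smchd1_del. Red points are the 22 *Hoxb* peaks with 1 counting standard error, the black line is the median of all peaks in steps of level and the grey bands hold their 25th to 75th and 5th to 95th percentiles. On the left P14 lies inside both bands and P10 inside the outer band only. They lie above both bands in the middle and below both on the right.

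By segment, the count of peaks higher in Smchd1del/del than in control is read against 46.6% of all peaks. Between the starts of *Hoxb13* and *Hoxb9*, 8 of 8 peaks were higher in Smchd1del/del, with a median difference of 0.34. From the *Hoxb9* start to the *Hoxb5* end, 4 of 5 were higher, with a median of 0.29. Between *Hoxb5* and *Hoxb4*, 4 of 4 were higher, with a median of 0.28. From *Hoxb4* onward, 2 of 3 were higher, P20 by 0.37 ± 0.17 and P22 by 0.15 ± 0.26, with P21 lower. In the flank before *Hoxb13*, 0 of 2 were higher. Of the 16 peaks from *Hoxb13* to *Hoxb5* and from *Hoxb4* onward, 5 lay within 2 counting standard errors of no difference. Between *Hoxb5* and *Hoxb4*, so did P16 (0.10 ± 0.18) and P19 (0.09 ± 0.24), but not P17 and P18. In the flank, P2 did and P1 did not.

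For MommeD43-GFP against control, where 50.8% of all peaks were higher, the segments held few peaks and small differences. Between *Hoxb13* and *Hoxb9*, 7 of 8 peaks were higher in MommeD43-GFP than in control, with a median of 0.09 and a range of -0.11 to 0.14. From *Hoxb9* to *Hoxb5*, 0 of 5 were higher, with a median of -0.18 and a range of -0.22 to -0.01. From *Hoxb4* onward, 3 of 3 were higher, at low levels, with a range of 0.09 to 0.52. Of these 16 peaks, 12 lay within 2 counting standard errors of no difference. The remaining segments were mixed. Between *Hoxb5* and *Hoxb4*, 2 of 4 peaks were higher, with a median of -0.003, and in the flank before *Hoxb13*, 1 of 2, with a median of 0.09. The variation between segments was not tested.

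The sequence around the cluster was read in windows of 250 kb. Before the *Hoxb* span, 35 peaks had a median difference from control of 0.01 in MommeD43-GFP and 0.02 in Smchd1del/del. The 6 tall peaks there were 0.04 in MommeD43-GFP and 0.06 in Smchd1del/del by median. In Smchd1del/del all 6 were higher than control, by 0.002 to 0.42, against 56.0% of peaks of that level. Their summed RPM was 1.105 times control. After the span, on the side of *Skap1*, which encodes an adaptor protein of T cells, 42 peaks had medians of 0.14 in MommeD43-GFP and 0.26 in Smchd1del/del, and the 5 tall peaks had 0.57 in MommeD43-GFP and 0.71 in Smchd1del/del. The excess in Smchd1del/del was thus not limited to the *Hoxb* span on that side, whereas the tall *Hoxb* peaks had a median of 0.09 in MommeD43-GFP and the tall *Skap1*-side peaks 0.57.

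**Figure D4:**
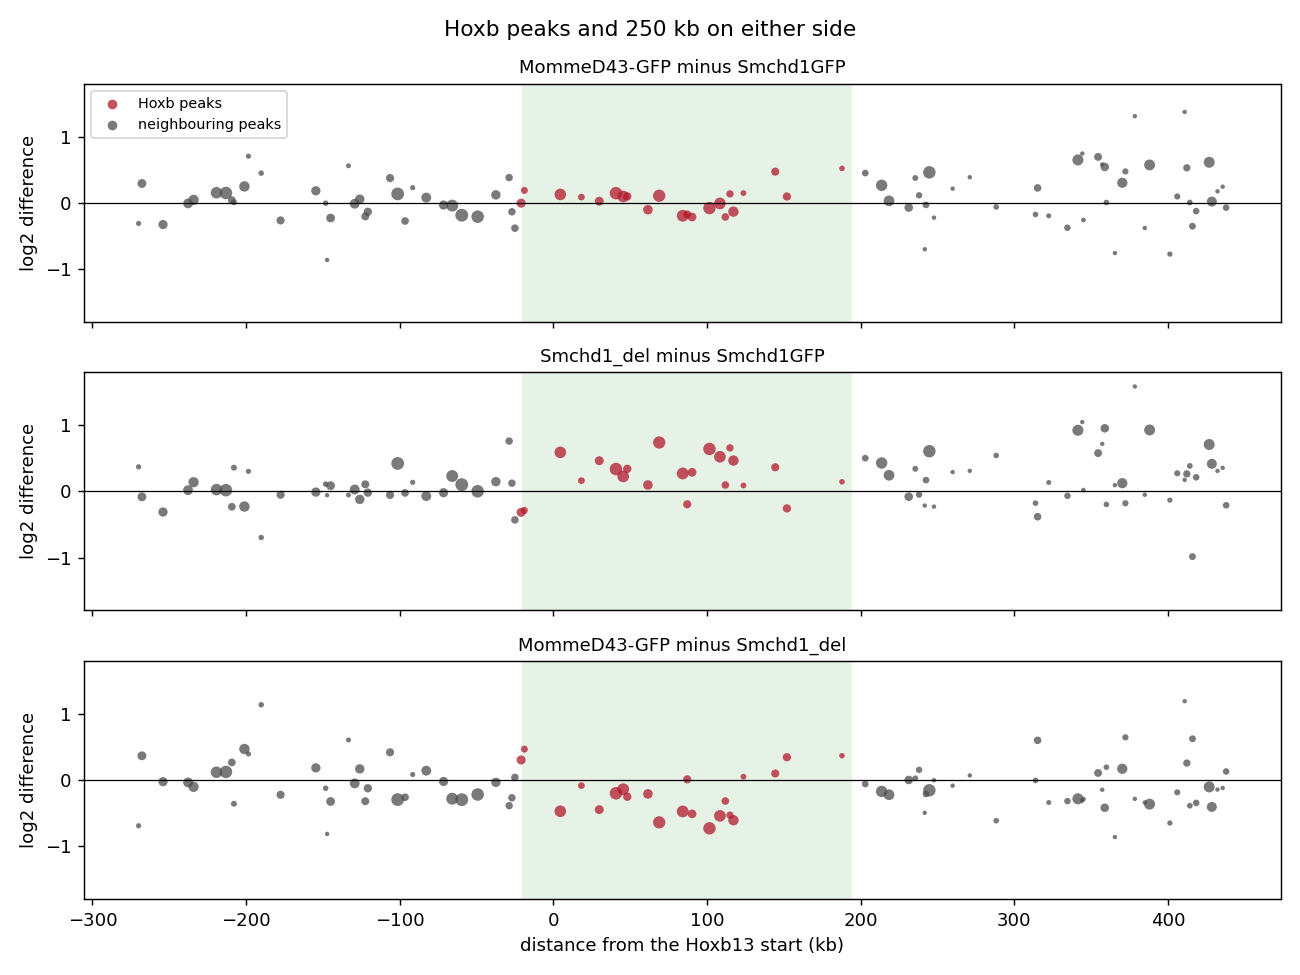
Difference in log2 CTCF level (vertical axes) at the *Hoxb* peaks (red) and at peaks up to 250 kb on either side (grey) by distance from the *Hoxb13* start (kb, horizontal axis), with the *Hoxb* span shaded and larger points for taller peaks. In Smchd1_del minus Smchd1GFP, peaks before the span centre near 0 (median 0.02), and both the *Hoxb* peaks (0.28) and those after the span (0.26) lie above it.

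The other Hox clusters were read by the same rule, with 20 kb on each side. Median differences from control were -0.08 in MommeD43-GFP and 0.09 in Smchd1del/del over 21 *Hoxa* peaks, -0.05 in MommeD43-GFP and 0.08 in Smchd1del/del over 15 *Hoxc* peaks, and -0.08 in MommeD43-GFP and 0.12 in Smchd1del/del over 14 *Hoxd* peaks. CTCF was higher in Smchd1del/del at 18 of 22 *Hoxb* peaks, against 11 of 21 *Hoxa*, 8 of 15 *Hoxc* and 9 of 14 *Hoxd* peaks. The share over all peaks was 46.6%. By summed RPM, Smchd1del/del was 1.32 times control in *Hoxb*, 1.07 in *Hoxa*, 1.12 in *Hoxc* and 1.26 in *Hoxd*. MommeD43-GFP less Smchd1del/del had medians of -0.23 in *Hoxb*, -0.05 in *Hoxa*, -0.05 in *Hoxc* and -0.33 in *Hoxd*. By summed RPM and by this last median, *Hoxd* was thus near *Hoxb* or beyond it. By the median difference of Smchd1del/del from control it was not, at 0.12 against 0.28 in *Hoxb*. *Hoxb* had no peak that was 2-fold or more higher in Smchd1del/del, while *Hoxa* had 1, *Hoxc* 1 and *Hoxd* 2. Over all peaks the share was 3.31%, so such counts are too small to set the clusters apart. Matrix sites were present in 45.5% of *Hoxb* peaks (43.7% at similar lengths), against 19.0% of *Hoxa* (42.4%), 20.0% of *Hoxc* (36.4%) and 21.4% of *Hoxd* peaks (39.5%). The loose motif gave another order. It was present in 27.3% of *Hoxb* peaks (46.9% at similar lengths), 28.6% of *Hoxa* (45.3%), 0% of *Hoxc* (39.6%) and 50% of *Hoxd* peaks (42.6%). These differences between clusters were not tested.

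The *Cdx* genes (*Cdx1*, *Cdx2* and *Cdx4*), known activators of Hox genes, were read with 10 kb on each side and held 5 peaks with medians of -0.18 in MommeD43-GFP and 0.08 in Smchd1del/del relative to control.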

How the data were processed

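Libraries were made from about 15 M female NSCs with an antibody to CTCF and read as 75-bp single-end reads. Per the labels and the study's methods, the authors trimmed reads with Trim Galore 0.4.4 and cutadapt 2.9, checked them with FastQC 0.11.8, used SAMtools 1.7 and, for mapping to GRCm38, Bowtie2 2.3.4.1, with R 4.2.0 later on. Reads were extended, and SeqMonk was used to call peaks for every genotype's pooled libraries, after which peaks that overlapped were joined. The deposited unit is log2 of reads per M of library, 1 value per joined peak and genotype (the authors' mean of its libraries). It is not corrected for length, so a longer peak holds more reads. Duplicate removal is not given in the sources used here. Values of single libraries and of the input were not used here, so replicate error could not be measured. Build patches are named differently in the labels and the methods, but chromosome coordinates are shared.

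Differences were taken between deposited columns, with no further scaling. Reads were decoded from the steps between low values, which are products of read counts (a count of 0 standing as 0.9; 100% of the low values came out whole within 0.01), and give counting error only. Genes were from GENCODE M21, sequences from GRCm38.p6. The weight matrix, added after the data were seen, was refined over 10 rounds from 5000 strong peaks of at most 2000 bp off chromosome 11, giving 2740 sites, and a site needed a score of at least 13.07 (p per position 1e-05 for random sequence of 48.5% GC). The peaks given in full are the 5 tallest, those with the highest and lowest difference in each comparison, those within 1 kb of a start of a *Hoxb* gene and those with the loose motif, 14 in all. The members and lists were chosen with earlier results of these data known. 1 further gene list is not reported here. Alternatives were centring, quantile normalization, a trend on level, GC bins, pseudocounts, filters on level or length, fold thresholds, flanks and division by length. A level of 2 as a filter was added after the data were seen. The decoding was tested on simulated data. Python 3.11.15, numpy 2.4.6, pandas 2.3.3, statsmodels 0.14.6, pysam 0.24.0 and matplotlib 3.10.9 were used.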

Additional observations from a re-analysis of the deposited data

How the results depend on the processing

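The median excess over control in Smchd1del/del NSCs kept its sign in each of the 11 alternatives run for it, with values of 0.15 to 0.52. It was 0.20 with a pseudocount of 1 on the linear scale, 0.15 for the 14 peaks under 2 kb and 0.52 for the 7 peaks at a level of 2 or above, a filter chosen after seeing the data. The number of peaks higher in Smchd1del/del was 11 of 14 under 2 kb and 7 of 7 at that level. Of all peaks of that level 56.0% were higher, and no such share was taken for peaks under 2 kb. At a threshold of 1.5-fold, 4 peaks were higher in Smchd1del/del than in control and 3 were lower in MommeD43-GFP than in Smchd1del/del, where none reached 2-fold. The median of MommeD43-GFP less Smchd1del/del was -0.14 for peaks under 2 kb and -0.31 with no flank. With no flank, 4 of 19 peaks were higher in MommeD43-GFP, against 53.9% of all peaks. At a level of 2 or above the median was -0.47, and 0 of 7 were higher, against 37.9% of peaks of that level. MommeD43-GFP less control ranged from 0.05 to 0.11 by median. At a level of 2 or above 4 of 7 peaks were higher, against 48.4% of peaks of that level. The same 5 peaks were tallest per kb of peak, and 6 of the 7 at a level of 2 or above were among the 7 highest, without P3 at *Hoxb13*. At a threshold of 4-fold, no *Hoxb* peak was called in any comparison. No paired analysis was possible because the table gives 1 pooled value per genotype, and for the same reason no library could be left out. Low peaks limit precision: at the median level the counting error of a pooled value is 0.14 to 0.17 on the log2 scale.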
